A study of Mus musculus with 2 samples.

Results

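The cells described here come from 2 sc-RNASeq libraries of mouse ileal epithelium and were picked out by the genes in which at least 1 UMI (unique molecular identifier, the count of 1 captured mRNA molecule) was found. A cell was a member when it held a UMI of 4 or more of the 7 markers Akr1c19, Lrg1, Gsdmc2, Gsdmc3, Gsdmc4, Slc28a3 and Slco2b1, and a UMI of fewer than 3 of the 7 excluded genes Slc40a1, Apol10a, Ugt2b5, Prss27, Edn2, Bmp3 and 2610528A11Rik. There were 486 members among 5408 cells, 396 of the 3402 WT cells and 90 of the 2006 Tipe0-/- cells. The WT library came from wild type C57BL/6 mice and the Tipe0-/- library, marked TKO in the plots, from C57BL/6 mice without TNFAIP8, a lipid transfer protein also called TIPE0. All mice were 8 weeks old, and the cells of 3 mice were pooled for each genotype. With a single library on each side nothing here could be tested, the intervals are exact 95% intervals for counting error only, and differences between the mice of a pool or between mouse lines cannot be told apart from the genotype. The question asked of these cells was which stage of the epithelial lineage they occupy and how they differ between the WT and the Tipe0-/- library.

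The epithelium of the ileum is renewed from Lgr5+ stem cells at the base of the crypts. Their daughters divide several times as transit-amplifying cells and then take either an absorptive fate, becoming enterocytes that mature while they move up the villus, or a secretory fate as goblet, Paneth, enteroendocrine or tuft cells. Cells low on the villus make antimicrobial proteins such as Reg3b and Reg3g, those higher up make transporters and apolipoproteins, and ileal enterocytes take up bile acids through Slc10a2, carry them on Fabp6 and release them through Slc51a and Slc51b. Of the 7 markers, Gsdmc2, Gsdmc3 and Gsdmc4 encode gasdermins of the C family, Akr1c19 an aldo-keto reductase, Lrg1 a secreted leucine-rich glycoprotein, Slc28a3 a concentrative nucleoside transporter and Slco2b1 an organic anion transporter. The Gsdmc genes lie side by side on chromosome 15 of mm10, Gsdmc2 at chr15:63824346-63845177, Gsdmc3 at chr15:63857724-63878558 and Gsdmc4 at chr15:63891264-63912297, all on the minus strand. The last 300 bases of the longest coding transcripts of Gsdmc3 and Gsdmc4, the end that a 3' library reads, were 89.0% identical, against 39.2% for Gsdmc2 and Gsdmc3 and 41.5% for Gsdmc2 and Gsdmc4. The split of UMIs between Gsdmc3 and Gsdmc4 is therefore uncertain.

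The promoters of 3 markers after which the cells are called are shown because Gsdmc3 and Lrg1 were lower across the Tipe0-/- library while Akr1c19 was not. RefSeq promoters (GRCm38.p6, the assembly also called mm10) were found for 5 of the 7 markers. Each sequence is the 250 bases before the annotated start of transcription, and capitals mark a match to 1 of 2 motifs searched on both strands. The first was the box bound by the TBP protein, written as TATAAA or, in its second spelling here, as TATATAA, and the second was TTCNNNGAA, the core site of STAT factors.
Akr1c19, chr13:4233490-4233739, plus strand: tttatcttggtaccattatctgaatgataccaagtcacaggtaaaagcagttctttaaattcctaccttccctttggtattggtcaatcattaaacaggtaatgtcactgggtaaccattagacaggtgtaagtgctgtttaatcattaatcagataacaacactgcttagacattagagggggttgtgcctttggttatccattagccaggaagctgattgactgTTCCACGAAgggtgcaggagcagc
Lrg1, chr17:56121947-56122196, minus strand: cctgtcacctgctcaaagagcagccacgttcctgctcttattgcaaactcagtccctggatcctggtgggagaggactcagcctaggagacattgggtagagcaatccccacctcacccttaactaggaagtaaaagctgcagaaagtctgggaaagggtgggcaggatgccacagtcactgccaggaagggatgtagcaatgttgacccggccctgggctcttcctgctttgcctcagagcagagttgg
Gsdmc3, chr15:63878559-63878808, minus strand: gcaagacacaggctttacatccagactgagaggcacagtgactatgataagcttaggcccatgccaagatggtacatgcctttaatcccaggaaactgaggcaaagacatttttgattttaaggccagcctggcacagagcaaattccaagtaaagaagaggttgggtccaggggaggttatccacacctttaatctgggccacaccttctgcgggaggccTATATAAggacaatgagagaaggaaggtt
The match in Gsdmc3 is a TATATAA that begins 29 bases before the start, and the match in Akr1c19 is a TTCNNNGAA that begins 24 bases before it. No such letters are in the window of Lrg1. A match to the box in either spelling is in 13.8% and a TTCNNNGAA match in 7.02% of 32851 promoter windows of this length, and neither shows that a factor binds there.

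The targeted gene was checked first. Tnfaip8 had 63 UMIs in 52 of the 396 WT members, which is 10.6 UMIs per 1000000 UMIs of the summed cells (CPM, interval 8.15 to 13.6), and 1 UMI in the 90 Tipe0-/- members, 0.554 CPM (0.0140 to 3.09). The log2 ratio of Tipe0-/- over WT was -3.68 (-9.58 to -1.73) in members, and the libraries as a whole had 9.76 and 2.39 CPM. The remaining UMIs may come from a 3' end outside the deleted part, which the counts do not show.

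Members were the more deeply sequenced cells of each library, and they did not form a separate group by the number of markers. The median member had 13903 UMIs in WT and 18009.5 in Tipe0-/-, against 7183 and 7042 in all other cells. The share of cells that met the rule was 3.65% of WT cells with 3000 to 5000 UMIs and 25% of those with 20000 to 30000, and 1.27% and 9.33% in the same bands of Tipe0-/-. Because the rule counts genes with any UMI, a deeper cell can pass it more easily. With each cell thinned at random to 3000 UMIs, the mean number of markers still differed between WT bands. It was 0.82 in WT cells with 3000 to 5000 UMIs before thinning, 1.19 with 20000 to 30000 and 0.62 with 30000 or more. In the same bands of Tipe0-/- it was 0.54, 0.66 and 0.66. The part of depth in the rise of the shares was not tested. Of the WT members 255 had exactly 4 markers, just inside the rule, and 393 WT cells had exactly 3 and would otherwise have passed. The same counts in Tipe0-/- were 60 and 123. The number of WT cells fell with each further marker, though unevenly, with no second peak. It was 1043 with none, 573 with 1, 526 with 2, 502 with 3, 419 with 4, 227 with 5 and 18 with all 7. A further 362 WT and 169 Tipe0-/- cells had 4 or more markers and were left out by the excluded genes. No barcode was shared by members of both libraries, while 9 barcodes occurred in both libraries as a whole.

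**Figure D1:**
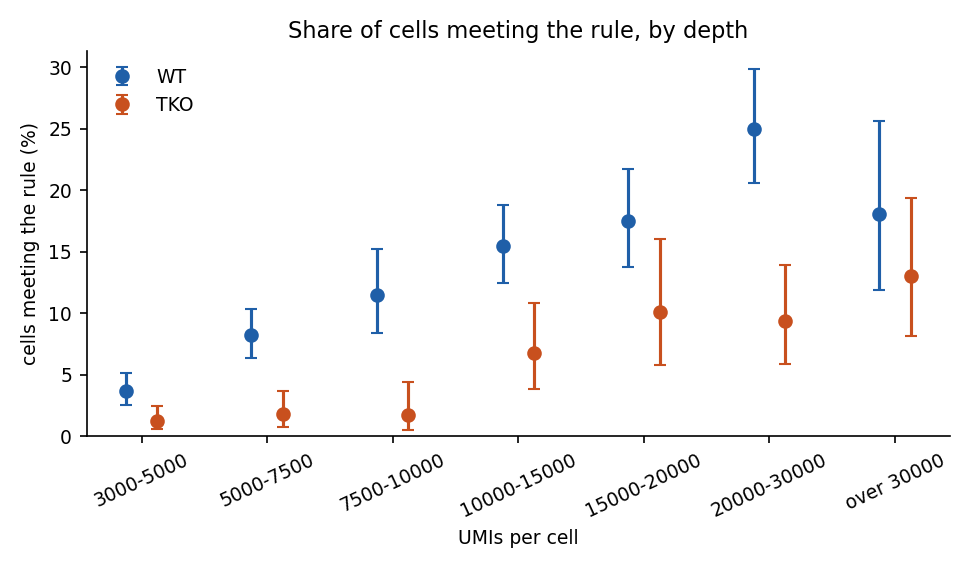
Share of cells that met the rule (y axis, percent of the cells of a band) by UMIs per cell (x axis, bands) in WT and TKO (Tipe0-/-); points are shares and bars exact 95% Clopper-Pearson intervals. WT points run from 3.65% in the shallowest band to 25% at 20000 to 30000 UMIs, and each TKO point lies below the WT point of its band.

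The markers chose the cells, so their levels are a description. Gsdmc4 was the most abundant, with 528 CPM in WT members and 153 in Tipe0-/- members against 258 and 78.6 in other cells. Gsdmc2 had 343 and 111 CPM against 144 and 48.8, and Gsdmc3 144 and 67.6 against 51.4 and 22.5. Akr1c19 stood at 78.6 and 73.7 CPM against 28.0 and 44.4. The 3 scarce markers were Lrg1, with 36.9 and 12.2 CPM against 25.1 and 4.98, Slc28a3, with 26.9 and 18.3 against 11.6 and 9.28, and Slco2b1, with 23.9 and 32.1 against 8.86 and 12.5. All 7 were thus higher in members in both libraries, by a median log2 ratio of 1.25 in WT and 1.19 in Tipe0-/-, and most of their UMIs lay outside the members. T cells were non-members with a UMI of 3 or more of Cd3e, Cd3g, Cd3d, Cd7, Cd8a, Gzma, Gzmb, Nkg7 and Ccl5. They also had to hold fewer than 3 of the 7 markers, which caps their marker shares, so these shares are no background for the markers. When each cell was thinned to 3000 UMIs, 58.6% of WT members had a UMI of Gsdmc2 (96.5% before thinning). It was found in 24.2% of other WT cells and 4.94% of the 81 WT T cells (median 5131 UMIs). Gsdmc4 was found in 69.2% of WT members, 33.0% of other WT cells and 18.5% of WT T cells, and in Tipe0-/- in 40%, 15.9% and 10%. The markers were low in mature villus cells, the 64 WT and 29 Tipe0-/- cells with 4 or more of Apoa4, Tmigd1, Enpp3, Clca4b, Slc28a2, Nt5e and Ada: Gsdmc2 had 38.9 CPM there in WT and 28.6 in Tipe0-/-, with Lrg1 as the exception in WT at 64.9 CPM.

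As to lineage, the members were low in Lgr5 and in enterocyte genes, which mark opposite ends of the crypt to villus axis, and held few UMIs of T cell or stroma genes. Replication and mitosis genes were higher in them on the deposited UMIs, but when the rule was applied to cells thinned to 3000 UMIs, the 16 DNA replication genes had medians of -0.79 in WT and -1.19 in Tipe0-/-, so division is not a settled trait of these cells. Epcam, the general epithelial adhesion molecule, had a UMI in 98.0% of WT and 98.9% of Tipe0-/- members after thinning, against 92.7% and 95.9% of other cells. It was also found in 55.6% of WT T cells and in all 20 Tipe0-/- T cells that had the depth, so its detection does not set members apart. The stem list was slightly lower in members than in other cells of their library, with a median log2 ratio of -0.19 in WT and -0.17 in Tipe0-/-, and Lgr5, its defining gene, was lower by more: 7.24 CPM in WT and 8.31 in Tipe0-/- members against 30.3 and 41.1. Lists of replication and mitosis were higher. The 16 DNA replication genes had medians of 0.72 and 0.59, and the 12 mitosis genes 0.88 and 0.63, beside 0.31 and 0.17 over all 8564 genes with at least 50 UMIs in members. Enterocyte genes were lower, with medians of -1.65 and -1.47 over 15 genes. These genes are not independent of the choice of cells, because the rule was applied to the same cells, and the second library only repeats the description.

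Among all 8564 genes, 0.771% were more than 2-fold higher in members than in other WT cells and 1.83% more than 2-fold lower, and in Tipe0-/- the shares were 0.642% and 2.28%. The genes named next are among the 15 outside the rule that were highest in members of both libraries. Birc5, a survivin that works in chromosome segregation, stood at 205 and 174 CPM against 97.1 and 101 (log2 ratios of 1.08 and 0.79). Cdk1, the kinase that drives entry into mitosis, stood at 117 and 135 against 59.9 and 72.2 (0.97 and 0.91). Cenpw, a centromere protein, had ratios of 0.95 and 0.82. With them came Csrp2, a LIM domain protein (0.92 and 0.70), Ethe1, a mitochondrial sulfur dioxygenase (0.87 and 0.94), Emg1, which modifies ribosomal RNA (0.86 and 0.72), Fbl, the nucleolar methyltransferase fibrillarin (0.74 and 0.69), Mrpl20 of the mitochondrial ribosome (0.75 and 0.70) and Dmbt1, a mucosal scavenger protein (0.68 and 0.75). Each of these also had UMIs in other cells. All 78 measured ribosomal protein genes were higher in members, with intervals above 0 in both libraries and medians of 0.43 and 0.30; of all genes 54.6% in WT and 25.2% in Tipe0-/- had such an interval.

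The genes lowest in members included genes of mature enterocytes and of Paneth cells. Apoa1, an apolipoprotein of lipid-absorbing cells, had 42.7 CPM in WT and 26.6 in Tipe0-/- members against 1021 and 955 in other cells (-4.58 and -5.15). Anpep, a brush border peptidase, had 62.3 and 38.8 against 487 and 396 (-2.96 and -3.34), and Tmigd1, which marks mature enterocytes, 19.4 and 11.1 against 199 and 199 (-3.36 and -4.13). Of 15 measured enterocyte genes, 14 in WT and 15 in Tipe0-/- had an interval below 0, as did 8.54% and 7.39% of all genes. None of the enterocyte genes is in the rule, but the rule chose the cells compared, so these counts are a description only. Saa1, an acute phase protein of the ileum, had ratios of -3.52 and -2.94, and Defa21, a Paneth cell defensin, -4.32 and -2.97. Of the rule's own exclusions, the ferroportin gene Slc40a1 had ratios of -1.18 and -0.94, which the rule fixes. Creb3l3 and Gata4, transcription factors of absorptive cells (Gata4 of the proximal gut), had no UMI in any member.

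On the deposited UMIs, the members were closer in replication and mitosis genes to cycling cells than to villus cells. Both sets were picked by the number of genes detected, which rises with depth, and with both picked after thinning, cycling cells were rarer among the cells nearest to members than in the library. Cycling cells were defined as the 943 WT and 677 Tipe0-/- non-members with a UMI of 4 or more of Mki67, Top2a, Cenpf, Ube2c, Birc5, Cdk1 and Ccnb1. Over these, the mitosis list had medians of -0.17 and -0.14 in members and the DNA replication list 0.15 and 0.25. The stem list was lower (-0.67 and -0.40) and the enterocyte list (0.83 and 0.30) and the ileal bile acid and cobalamin list (0.97 and 0.73) higher, beside 0.17 and 0.08 over all genes. The enterocyte and bile acid excess was not seen in the medians of members with 4 or more of the same 7 genes. Over cycling cells these were -0.04 and -0.16 for enterocyte genes and -0.39 and -0.32 for the bile acid list. They were -0.51 and -0.34 for stem genes and 0.37 and 0.34 for DNA replication. Members with 2 or 3 of the genes held 1029 and 1331 CPM of the enterocyte list, against 867 and 1041 in cycling cells. Lgr5 showed the difference most plainly, with 7.24 and 8.31 CPM in members against 40.9 and 41.3 in cycling cells. Ascl2, a transcription factor of stem cells, had 5.22 CPM in WT and 18.3 in Tipe0-/- members against 21.4 and 23.1, and this difference between the libraries was not tested. Ephb3, a crypt base receptor, had 11.9 and 16.1 against 34.1 and 28.9, and Slc12a2, a chloride cotransporter of the crypt, 209 and 291 against 320 and 397.

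Enterocyte genes were far lower in members than in mature villus cells, whereas the villus bottom list had medians of -0.20 in WT and 0.24 in Tipe0-/-. Its sum was 55921 CPM in WT and 36725 in Tipe0-/- members, against 102421 and 40347 in mature villus cells. Over the Slc40a1 Edn2 cells defined below, the villus bottom list had medians of -1.68 and -0.99. Over mature villus cells, the enterocyte list had medians of -4.36 in WT and -4.08 in Tipe0-/- and the DNA replication list 2.98 and 1.85. Over the 41 WT and 63 Tipe0-/- cells with 4 or more of the excluded genes and fewer than 3 markers, which carry Slc40a1 and Edn2, the enterocyte list had medians of -3.20 and -2.52 and the DNA replication list 3.61 and 1.81. Fabp6 was ordered otherwise among the villus sets, with 2890 and 2986 CPM in members, 1428 and 1589 in cycling cells, 9419 and 10844 in mature villus cells, and 28866 and 28169 in the Slc40a1 Edn2 cells. WT T cells had 5507 CPM of Fabp6, and whether a low level of this very abundant RNA reflects its making was not tested. Transcription factors of the absorptive lineage were at like levels in members and cycling cells: Hnf4a had 218 and 223 CPM in members against 185 and 211, and Cdx1, the intestinal identity factor, 228 and 208 against 194 and 183.

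**Figure D2:**
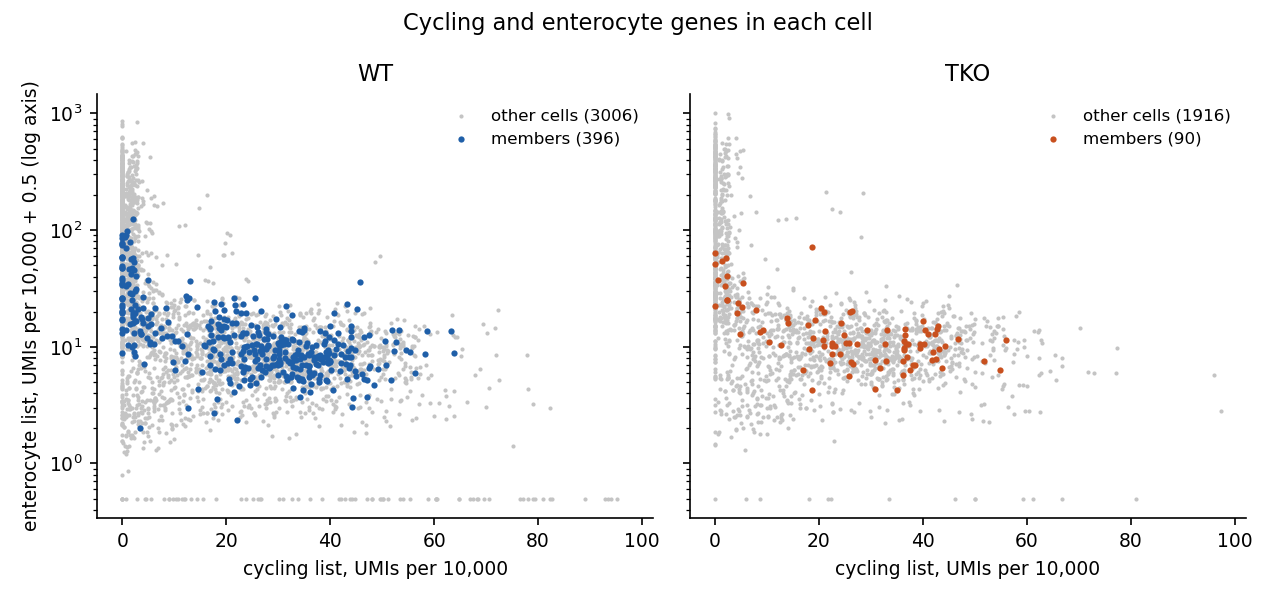
Each point is 1 cell, with UMIs of the DNA replication and mitosis lists per 10,000 UMIs on the x axis and UMIs of the enterocyte list per 10,000 plus 0.5 on the y axis (log axis), in WT and TKO (Tipe0-/-). Coloured members fall in a large cloud at a median of 25.8 cycling UMIs per 10,000 in either library and in a smaller set near 0 that reaches higher on the enterocyte axis, within the spread of grey other cells.

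Members were not alike, and they differed in the number of cycling genes detected. Those with 0 or 1 are called non-cycling below, by detection only, as are other cells with 0 or 1. By the 7 cycling genes named above, 251 WT members (63.4%, interval 58.4 to 68.1) and 65 Tipe0-/- members (72.2%, 61.8 to 81.1) had 4 or more. Another 106 WT (26.8%, 22.5 to 31.4) and 18 Tipe0-/- members (20%, 12.3 to 29.8) had 0 or 1, and 39 and 7 lay in between. Depth moved with this split, with a median of 17514 UMIs in WT and 22223 in Tipe0-/- members with 4 or more and 6380.5 and 7620.5 in those with 0 or 1. After thinning, 73.0% of WT and 78.9% of Tipe0-/- members had at least 1 cycling gene (82.8% and 87.8% unthinned), against 47.1% and 50.7% of other cells, 52.1% and 62.5% of other cells weighted to the depth of the members, and 10.9% and 13.8% of mature villus cells, which do not divide. WT T cells were a higher background: after thinning Mki67 was found in 21.0% of them and 21.0% of WT members, Cdk1 in 22.2% and 24.7%, Birc5 in 25.9% and 37.1%, and Top2a in 37.0% and 49.0%. In Tipe0-/- the shares were 10% of T cells and 27.8% of members for Mki67, 10% and 34.4% for Cdk1, 15% and 33.3% for Birc5, and 30% and 50% for Top2a, with 20 T cells. The share with Mki67 was thus the same in T cells and members of WT. WT T cells lay above other WT cells, so they are no plain background. In Tipe0-/- other cells had Mki67 in 17.3%, and the interval of the T cells (1.23 to 31.7%) held the share of the members. Whether the T cells themselves divided was not tested.

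Members with 0 or 1 cycling gene had higher levels of ileal enterocyte genes than those with 4 or more. The split was made on cycling genes after the data were seen, so genes of mitosis are not a finding between the sets, but absorptive genes were not used. The enterocyte list summed to 3208 CPM in WT and 3270 in Tipe0-/- members with 0 or 1, against 896 and 958 with 4 or more, and its median log2 ratio was 2.51 and 2.74. The ileal bile acid and cobalamin list had medians of 3.58 and 3.54. Fabp6, the ileal bile acid carrier, had 12080.5 CPM in WT and 20810.5 in Tipe0-/- members with 0 or 1 against 1069 and 901. The bile acid importer Slc10a2 had 163 and 125 CPM against 3.04 and 1.95. Of the exporter subunits, Slc51a had 283 and 296 against 22.4 and 24.7 and Slc51b 379 and 348 against 26.3 and 30.5. Krt20, a keratin of differentiated cells, had 448 and 325 against 35.2 and 27.3, Sis, the disaccharidase sucrase-isomaltase, 200.2 and 177 against 9.34 and 13.6, and Anpep 366 and 319 against 5.86 and 7.79. Each of these genes was thus several-fold higher in 1 set than in the other in both libraries. Reg3b, the antimicrobial lectin of the lower villus, made up 67958 and 45113 CPM against 28088 and 19956. The rule's excluded genes summed to 546 and 490 CPM against 121 and 95.4. In other cells with 0 or 1 cycling gene they summed to 457 and 431 CPM, and the medians of members over these cells were -0.30 and -0.34. Other signals moved with the split: the mitochondrially encoded genes summed to 93425 and 111806 CPM against 49771 and 62756, the T cell list to 172 and 34.2 against 53.9 and 7.14, and the Paneth list to 12790 against 5261 in WT but 6489 against 9264 in Tipe0-/-. WT T cells, which should not make enterocyte proteins, held 2803 CPM of the enterocyte list, a level close to that of the non-cycling members. They also held 137269 CPM of the Paneth list, against 55493 in all WT cells, so they are no measure of background RNA. Whether the enterocyte list's sum in WT members reflects its making was not tested. Tipe0-/- T cells held 1410 CPM, against 3270 in the non-cycling members. The part of these in the result was not tested.

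The same cells stayed below the mature villus state. Compared with the 1653 WT and 973 Tipe0-/- other cells with 0 or 1 cycling gene, the enterocyte list had medians of -0.78 and -1.10 and the villus top list, apolipoproteins and fat absorption genes, -1.10 and -1.05. Apoa1 had 169 and 160 CPM against 2239 and 2762, Fabp2, the fatty acid binding protein of the villus, 221 and 427 against 1646 and 2962, and the amino acid transporter Slc6a19 7.57 and 5.70 against 140 and 245. The villus bottom list, by contrast, differed little, with medians of 0.06 and 0.13 beside 0.32 and 0.34 over all genes, and its summed level was 103294 and 65616 CPM in these members against 102537 and 62935. The ileal bile acid and cobalamin list was lower as well, with medians of -0.60 and -0.41 and an interval below 0 for 5 of 6 genes in WT and 2 of 6 in Tipe0-/-, where 4.31% and 2.48% of all 8564 genes had one. Non-cycling members therefore lay below other non-cycling cells in the enterocyte and villus top lists, while the genes of the villus bottom list went both ways. The bile acid list's sum did not follow its median in Tipe0-/-, with 21733 CPM against 20638, and the 14 absorptive transcription factors had medians of 0.38 and 0.14.

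Most markers were higher in the non-cycling members, all 7 with an interval above 0 in WT (14.7% of all genes had one) and 5 in Tipe0-/- (8.45%), where Lrg1 (-0.35 to 2.97) and Slco2b1 (-1.38 to 1.36) had intervals that held 0. Gsdmc4 had 957 CPM in WT and 404 in Tipe0-/- members with 0 or 1 cycling gene against 433 and 111 with 4 or more. Gsdmc2 had 521 and 308 against 301 and 85.0, and Akr1c19 126 and 188 against 69.3 and 59.1. A shallow cell needs a higher level to show 4 markers, so the rule can set this order among members. In the libraries as a whole, where cells were not chosen on the markers, the order did not hold for all markers. Gsdmc4 had 350 CPM in WT and 113 in Tipe0-/- cells with 0 or 1 cycling gene and 263 and 69.2 in cells with 4 or more, while Gsdmc2 had 166 and 61.2 against 178 and 50.2, Akr1c19 36.3 and 53.1 against 36.6 and 43.8, and Gsdmc3 58.1 and 30.01 against 71.4 and 25.6. Slco2b1 in Tipe0-/- had 10.5 against 16.3. The comparison was repeated in cells with the goblet list under 1% and the Paneth list under 2% of UMIs. There the WT order turned for Gsdmc2, at 214 against 197, and for Akr1c19, at 48.9 against 44.0. It did not turn for Gsdmc3 in WT, at 73.4 against 81.0, or for Slco2b1 in Tipe0-/-, at 12.8 against 17.1.

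**Figure D3:**
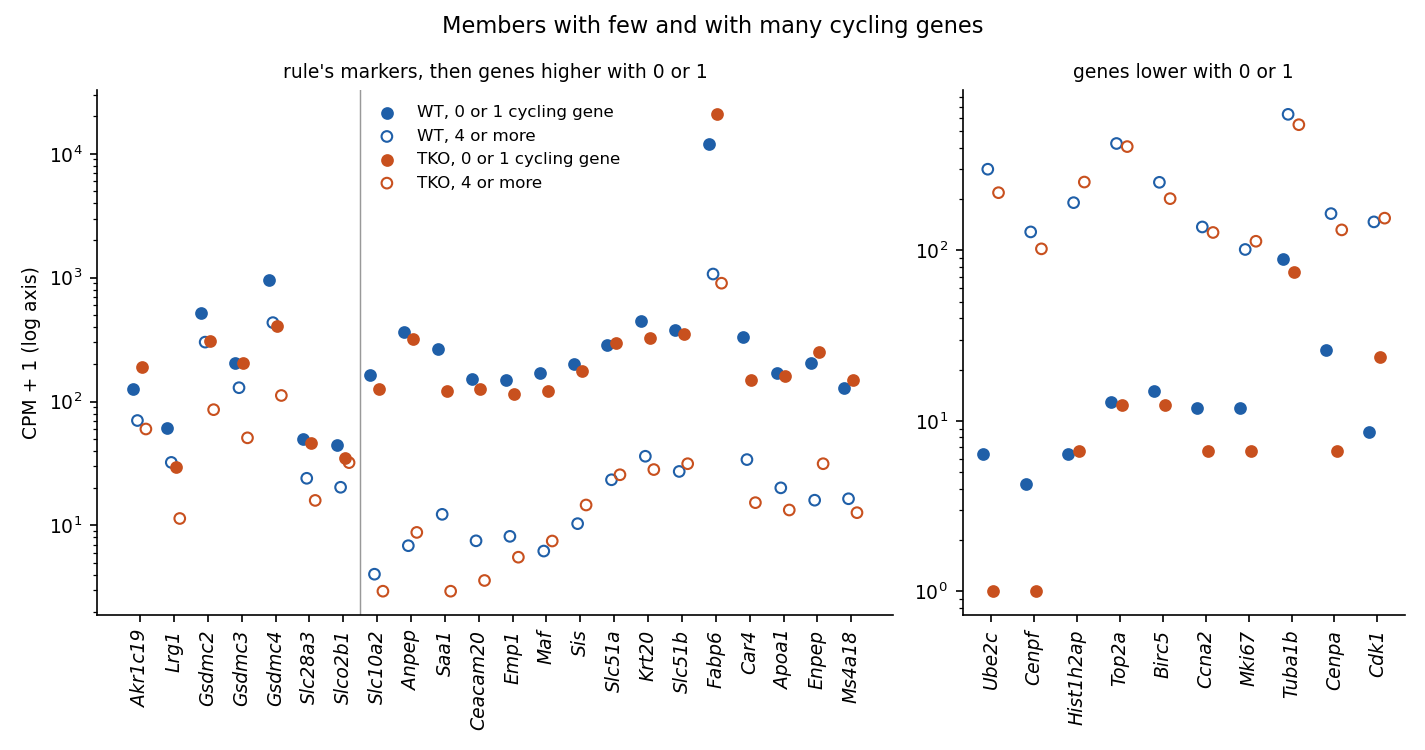
Level (CPM + 1, log axis) of the 7 markers, of 15 genes higher and of 10 genes lower in members with 0 or 1 cycling gene, each gene on the x axis; filled circles are members with 0 or 1 and open circles members with 4 or more, in WT and TKO (Tipe0-/-). The 15 higher genes, from Slc10a2 to Ms4a18, differ 8-fold or more in CPM before 1 is added, and the markers differ by less.

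Cells rich in goblet RNA were as frequent among members as among other cells, cells rich in Paneth RNA were rarer in WT. The goblet list reached 1% of UMIs in 104 WT members (26.3%) and 27 Tipe0-/- members (30%), against 27.0% and 27.5% of other cells. The Paneth list reached 2% in 24 and 5 members, 6.06% and 5.56% (interval 1.83 to 12.5), against 15.04% and 8.92%, so the Tipe0-/- interval holds the share of other cells. In members the Paneth list summed to 7724 CPM in WT and 9252 in Tipe0-/-, with Defa24 as its most abundant gene at 5073 and 6145 CPM, and in T cells, which should not make defensins, the list summed to 137269 CPM in WT and 2052 in Tipe0-/-. A UMI of 3 or more tuft genes was found in 36 WT (9.09%) and 6 Tipe0-/- members (6.67%), against 5.42% and 3.18% of other cells, a count of detected genes that rises with depth. The summed tuft list had 151 CPM in WT members against 154 in other cells, and 137 against 79.4 in Tipe0-/-. T cell genes were nearly absent, with 71.7 and 14.4 CPM for the list, most of it Ccl5, and 6 WT members and no Tipe0-/- member had 3 or more of them. The 7 stroma and vessel genes had no UMI in any member. Among genes that steer the secretory choice, Atoh1, its master factor, had 19.9 and 28.8 CPM in members against 27.0 and 39.2 in other cells, and Dll1, the Notch ligand of secretory progenitors, 11.9 and 12.7 against 10.4 and 18.8.

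The excess of cycling genes changed with the form of the rule. It was above 0 with 3 or more markers, at 0.91 in WT and 0.54 in Tipe0-/- for DNA replication, and with 5 or more, at 0.56 and 0.29. When the rule was applied to cells thinned to 3000 UMIs, 96 WT and 18 Tipe0-/- cells met it, of which 59 and 8 were members of the full rule. In these cells the DNA replication list had a median of -0.79 in WT and -1.19 in Tipe0-/- against all other cells and the mitosis list -0.48 and -0.06, and the last was 0.074 when only list genes with 50 UMIs in these cells were kept, so its sign is not fixed. The ribosomal protein list had medians of 0.02 and -0.13 there. The enterocyte list remained below 0 (-0.35 and -0.61), the stem list was lower still (-1.60 and -1.75), and the villus bottom list was above it (0.57 and 0.51), with Reg3b and Reg3g as its most abundant genes, beside 0.17 and 0.23 over all genes. At least 1 cycling gene was found after thinning in 36.5% (26.9 to 46.9) of the 96 WT and 61.1% (35.7 to 82.7) of the 18 Tipe0-/- cells, against 50.5% and 51.9% of the rest. Without the excluded genes the DNA replication medians were -0.057 and -0.073, and those of mitosis were 0.50 and 0.44. The enterocyte list was below 0 in each of these settings, and the stem list in all but 1, the WT rule with 3 or more markers (0.039). When other cells were weighted to the depth bands of the members, the medians were 0.72 and 0.56 for DNA replication and -1.34 and -0.87 for enterocyte genes.

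**Figure D4:**
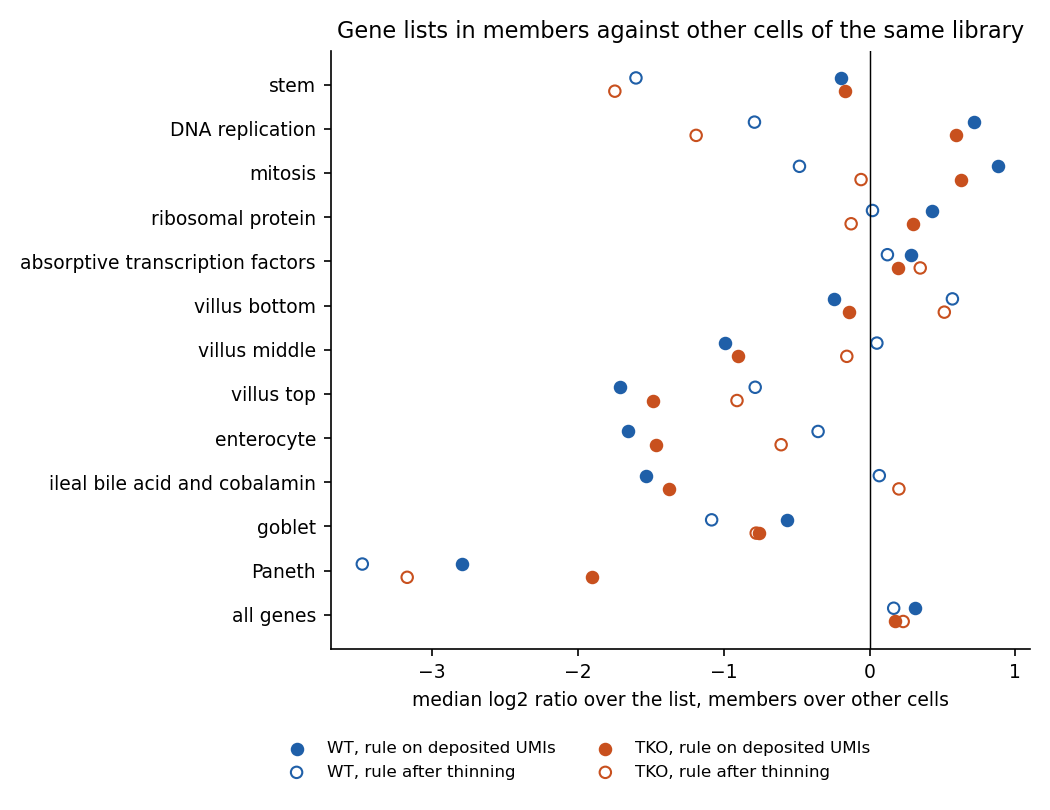
Median log2 ratio of members over other cells of the same library (x axis) for 12 gene lists and for all genes (y axis), WT and TKO (Tipe0-/-); filled circles use the rule on the deposited UMIs and open circles the rule on cells thinned to 3000 UMIs. DNA replication is above 0 when filled and below 0 when open, as is mitosis, for which the open TKO point lies at -0.06 and its sign depends on the genes kept (0.074 with fewer genes), the villus bottom list goes the other way, and the enterocyte and stem lists stay below 0.

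Members resembled each other in genes that the rule did not use, to a limited degree. In 14 principal components made without the 14 genes of the rule, 29.1% of the 20 nearest cells of a WT member were members, against 10.4% for other WT cells and 14.7% for other WT cells of 10000 or more UMIs. In Tipe0-/- the values were 11.4%, 4.62% and 7.57%. Most neighbours of a member were thus cells that the rule did not find. Cycling cells made up 39.6% of the neighbours in WT and 56.1% in Tipe0-/- (27.7% and 33.7% of the libraries). With rule, cycling cells and components all taken after thinning this turned, to 7.60% and 3.61% of the neighbours against 13.9% and 12.96% of the libraries. Mature villus cells made up 0.215% and 0.0556% (1.88% and 1.45% of the libraries). Neither the marker counts nor the neighbours set these cells apart as a separate group, and they are called by the genes of their rule.

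Fewer Tipe0-/- cells met the rule. The share was 11.6% in WT (10.6 to 12.8) against 4.49% in Tipe0-/- (3.62 to 5.49), which differ by -7.15 percentage points (Newcombe interval -8.54 to -5.72). It was below 0 in each of the 7 depth bands and for each of the 7 rules that leave out 1 marker, for which it ran from -7.16 to -2.35 points. The markers that count toward the rule were, however, lower in the Tipe0-/- library as a whole. Gsdmc4 stood at 300.2 CPM in all WT cells and 84.3 in all Tipe0-/- cells (log2 ratio -1.83, interval -1.90 to -1.76), Gsdmc2 at 175 and 53.6 (-1.70), Gsdmc3 at 65.8 and 25.9 (-1.34) and Lrg1 at 26.9 and 5.52 (-2.28). Slc28a3 was slightly lower (-0.49), and Akr1c19 (0.38) and Slco2b1 (0.32) were higher. A lower level of 4 markers across the library and fewer cells of 1 kind cannot be told apart by a rule that counts these markers.

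A further count took the markers only in WT cells, where they chose the WT members. Of the 20 nearest WT cells in the components without the rule's genes, WT members made up 12.6% on average for WT cells and 12.5% for Tipe0-/- cells, a difference of -0.0543 points, and 29.9% for Tipe0-/- members. With 10 nearest cells the values were 12.4% and 11.9%, with 50 they were 12.8% and 12.9%, and after thinning 2.56% and 2.04%, so the difference was small at full depth and larger, relative to its level, after thinning. WT members were 11.6% of all WT cells, near both means at full depth. Members made up 29.1% of the neighbours of a WT member and 10.4% of those of other WT cells. The mean therefore responds little to the share of such cells, and nothing on their number is read from it. This count was chosen after the data were seen and has no interval.

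Within members, the Tipe0-/- library was lower in several microbe- or interferon-induced genes and in antigen presentation genes, while the Paneth list went the other way, from 7724 CPM in WT to 9252 in Tipe0-/- with a median log2 ratio of 0.25. Of 8564 genes, 0.957% were more than 2-fold higher and 1.56% more than 2-fold lower in Tipe0-/- members than in WT members, with a median log2 ratio of 0.04. Retnlb, a goblet cell protein induced by microbes and type 2 cytokines, had 321 CPM in WT and 22.7 in Tipe0-/- members (-3.80, interval -4.31 to -3.38). Sprr2a3, a small proline-rich protein, had 118 and 9.42 (-3.61, -4.44 to -2.96), Ly6a, which encodes the fetal-like marker Sca-1, 178 and 17.2 (-3.35, -3.94 to -2.86), and Pla2g4c, a cytosolic phospholipase, 207 and 27.1 (-2.92, -3.37 to -2.52). AA467197, also called Nmes1, had 445 and 82.0 (-2.44) and Ifitm3, an interferon-induced membrane protein, 629.5 and 142 (-2.15). Next to them stood the markers Gsdmc4 (-1.78) and Gsdmc2 (-1.62), H2-Aa of MHC class II (-1.56) and Ang4, a Paneth cell ribonuclease (-1.49). Each of these was also lower in the other cells, for instance Retnlb by -3.75, Ly6a by -2.81 and Pla2g4c by -3.91, so none of these differences was shown to be particular to members.

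The lists said the same. All 7 measured MHC class II genes were lower in Tipe0-/- members, 6 with an interval below 0, against 10.5% of all 8564 genes, and the median was -1.33, the same as in other cells (-1.33). Cd74, the invariant chain, had 1447 and 609 CPM, H2-Ab1 402 and 160, and their activator Ciita 7.91 and 5.54 CPM with an interval that held 0. Of 12 MHC class I genes all were lower, 10 with an interval below 0, with a median of -0.63; Tap1, the peptide transporter, had 71.5 and 26.6 CPM. All 10 interferon-stimulated genes had an interval below 0 (median -1.38), among them Isg15, a ubiquitin-like modifier, with 59.2 and 7.76 CPM. Of 12 microbe-induced defence genes 9 had an interval below 0 (median -0.83), with Reg3b at 34909 and 22982 CPM. T cell RNA moved the same way, at 71.7 CPM in WT and 14.4 in Tipe0-/- members over the T cell list and 237 and 54.5 in other cells, and its part in the result was not tested.

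Most stem genes were higher. Of 10 measured stem genes 9 were above 0 in Tipe0-/- members, 7 with an interval above 0 (11.2% of all genes had one), with a median of 0.51 against 0.53 in other cells. Slc12a2 had 209 and 291 CPM, Sox9, a crypt transcription factor, 80.3 and 116, and Axin2, a Wnt target, 55.4 and 83.1. Ascl2 had 5.22 and 18.3 (1.81, 1.06 to 2.56), against 0.51 in other cells. Lgr5, at 7.24 and 8.31 CPM, had an interval that held 0 (-0.75 to 1.08). Hes1, the Notch target that favours absorptive fate, had 60.6 and 120.2 (0.99), Myc 22.4 and 45.4 (1.02) and Aqp1, a water channel, 52.7 and 102 (0.95), all close to their ratios in other cells (1.08, 1.16 and 1.19). Of 16 DNA replication genes 14 were above 0 and 6 had an interval above 0 (median 0.28, and 0.39 in other cells), while the mitosis list had a median of -0.13, which was 0.49 after thinning, and the enterocyte list -0.29, which was 0.060 in members with 10000 to 30000 UMIs, so neither has a settled direction.

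**Figure D5:**
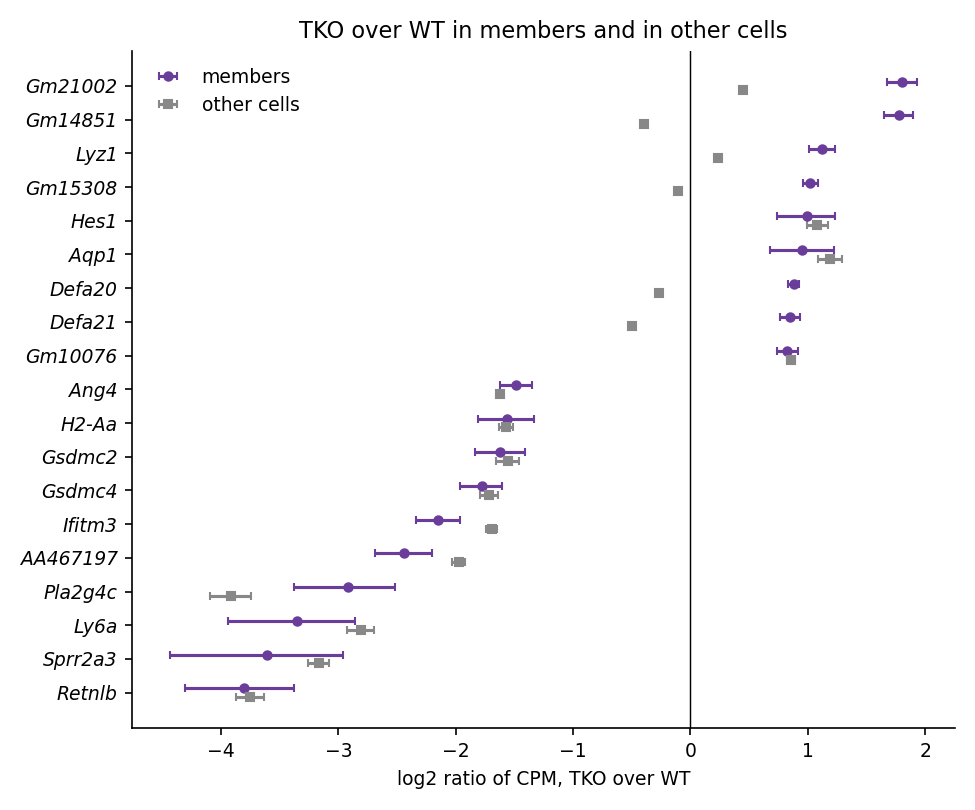
Log2 ratio of CPM, TKO (Tipe0-/-) over WT (x axis), for 9 of the genes highest and the 10 genes lowest by this ratio in members among those with at least 100 CPM (y axis); circles are members, squares other cells, and bars exact 95% counting intervals. Genes from Retnlb to Ang4 lie below 0 in both sets of cells, and Defa21 and Gm14851 lie above 0 in members and below 0 in other cells.

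Among the genes named for the highest ratios, Paneth cell genes had higher ratios in members than in other cells, and single cells held much of their UMIs. Gm21002 had 158 CPM in WT and 553 in Tipe0-/- members (1.80, and 0.45 in other cells) and Gm14851 185 and 634 (1.77 and -0.40). Of their UMIs, 60.7% and 72.9% came from 1 of the 90 Tipe0-/- members, and 41.7% and 62.9% from 1 of the 396 WT members. Lyz1, lysozyme, had 269 and 584 CPM (1.12), with 43.6% from 1 Tipe0-/- member. The defensin genes are near-identical copies whose reads can be split among them, and their levels here describe a few cells. Nnt, a mitochondrial transhydrogenase gene disrupted in the C57BL/6J substrain, had 13.97 CPM in WT and 41.5 in Tipe0-/- members (1.57, 1.10 to 2.04) and 1.79 in other cells, and a difference of substrain between the pools, which no label gives, cannot be told apart from the genotype.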

How the data were processed

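Ileal cells of WT and Tipe0-/- mice were profiled with 10x Single Cell 3' chemistry. Cell Ranger and mm10 are named in the submitters' processing notes, and the authors deposited UMI counts of 27998 genes per cell, not normalized and without the depth equalization their methods describe. The labels name collagenase and dispase on enteroids, whereas the paper describes enterocytes with DNase I and Dispase, and this was not resolved. The WT library held 3402 cells and 38127808 UMIs and the Tipe0-/- library 2006 cells and 23897126 UMIs.

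The rule was applied to the deposited counts. The members and the gene lists were chosen with earlier results of these data known. UMIs were summed over cells and divided by their total (CPM), and log2 ratios were made with 0.5 added to each sum, with exact binomial intervals, for genes with at least 50 UMIs in members. Because 1 library exists per genotype, neither edgeR nor DESeq2 was run and no p-value was made. Named genes were those of the rule, the most abundant and the extreme genes of each list, and the 10 to 15 most extreme in each comparison among genes with at least 100 CPM; genes of the split by cycling genes, and the alternatives by depth bands, cycling genes and nearest WT cells, were chosen after the data were seen. Cells were thinned to 3000 UMIs without replacement, which lost no cell. Nearest cells were found in 14 principal components of 1000 variable genes. Scrublet in Scanpy 1.11.5 called 4 WT and 3 Tipe0-/- cells, too few to have worked, so doublets were kept. Its median score was 0.0469 in WT and 0.0594 in Tipe0-/- members, against 0.0326 and 0.0408 in other cells. Of the members, 19 in WT and 8 in Tipe0-/- were among the 5% of cells with the highest scores. The part of doublets in the results was not tested. Steps were tested on simulated data. Values of 3 genes are not reported here. Python 3.11.15, numpy 2.4.6, scipy 1.17.1 and scikit-learn 1.9.0 were used. Alternatives changed the markers, the excluded genes, depth, scaling, filters and neighbours.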

Additional observations from a re-analysis of the deposited data

Results flagged for a closer look

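A few named genes lay on opposite sides of 0 in the 2 libraries when members were compared with other cells of their library, and the difference between the libraries was not tested. Reg3g, a bactericidal lectin of the lower villus, had a log2 ratio of -0.23 in WT and 0.10 in Tipe0-/-. Agr2, a disulfide isomerase of mucus-producing cells, had 0.044 in WT and -0.54 in Tipe0-/-. The mitochondrial gene mt-Nd4l had 0.18 in WT and -0.22 in Tipe0-/-, and members had fewer mitochondrial UMIs than other cells in each library, 5.85% against 6.73% in WT and 6.92% against 8.69% in Tipe0-/-.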

How the results depend on the processing

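Of 311 values under alternatives, 236 lay within the counting interval of the reported value, or within 1.5 times of a reported count, 69 lay outside it and 6 turned the sign of a value whose interval left out 0. In all 18 changed sign, the rest of them medians whose interval held 0; with 1 library per genotype no value has a replicate spread, and the limits below are those of counting. No paired analysis was possible because each genotype has 1 library and no replicate. The share of members was 23.2% in WT and 10.6% in Tipe0-/- (difference -12.6 points) with 3 or more markers, 4.14% and 1.496% (-2.65) with 5 or more, 22.3% and 12.9% (-9.37) without the excluded genes and 2.82% and 0.897% (-1.92) after thinning. Without Akr1c19 it was 6.79% and 2.19% (-4.60), without Gsdmc2 4.50% and 2.14% (-2.35), without Gsdmc3 5.64% and 2.49% (-3.15) and without Gsdmc4 4.38% and 1.74% (-2.64); in WT it was 9.94% without Lrg1, 9.91% without Slc28a3 and 10.3% without Slco2b1, and in Tipe0-/- 3.19% without Slco2b1. By nearest WT cells, a count that responds little to the share of members, the difference was -0.0543 points. Genes more than 2-fold higher in Tipe0-/- members numbered 125 with the mean over cells, 218 with a minimum of 20 UMIs, 26 with 100 and 1226 with 1, and those lower 254, 79 and 860 for the last 3.

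Among the medians of Tipe0-/- over WT members, MHC class II was -1.65 with 5 markers, -1.56 after thinning and -1.63 in members with 10000 to 30000 UMIs, and MHC class I -0.47 in members with 4 or more cycling genes. Mitosis was 0.49 after thinning, enterocyte 0.060 in members with 10000 to 30000 UMIs, and ribosomal protein -0.031 with 3 markers and -0.10 with 10000 to 30000 UMIs. Each alternative took its medians over the list genes that kept 50 UMIs, so they differ from the values over fixed genes in the text.

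Against other cells, the stem list in WT members reversed to 0.039 with 3 markers and was -0.94 without the excluded genes, -1.49 after thinning, -0.44 with CPM made without mitochondrial genes and the 20 most abundant genes, and -0.54 with the mean over cells. Tipe0-/- gave -1.26 without the excluded genes, -1.45 after thinning and -0.56 with the mean over cells. DNA replication in WT reversed to -0.057 without the excluded genes and -0.68 after thinning, and was 0.91 with 3 markers, 0.56 with 5, 0.48 with the other CPM and 0.41 with the mean over cells; in Tipe0-/- it reversed to -0.073 and -0.65 and was 0.29 with 5 markers. Mitosis in WT reversed to -0.43 after thinning and was 0.50 without the excluded genes and 0.64 with the other CPM, and 0.074 after thinning in Tipe0-/-. Enterocyte genes in WT were -0.99, -0.29, -1.90 and -1.34 without the excluded genes, after thinning, with the other CPM and with depth-weighted cells, and -0.87, -0.44 and, depth-weighted, -0.87 in Tipe0-/-. The share of members among nearest cells was 27.9% in WT with 50 cells, and 7.97% and 2.22% after thinning. The cause of these changes was not tested.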
